A study of Mus musculus with 4 samples.

Results

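Mature natural killer (NK) cells of the mouse left ventricle were taken from single-cell RNA sequencing by a gate on unique molecular identifier (UMI) counts, and the gate held 880 cells among 11148 leukocytes assigned to a mouse. A member carried at least 1 UMI over the NK receptor genes Ncr1 and Klrb1c and at least 4 over the killing genes Gzma, Prf1 and Nkg7. It carried at most 1 over Cd3e, Cd3d and Cd3g, at most 2 over Cd79a, Cd79b and Ms4a1, and at most 4 over C1qa, C1qb and C1qc. Its sum over Klrg1, Cma1, Zeb2 and Itgam was greater than its sum over Cd27, Emb, Ctla2a, Cd7 and Xcl1. NK cells in which that sum was equal or smaller are called less mature here and numbered 853.

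NK cells are innate lymphocytes that kill infected or transformed cells with granules of perforin and granzymes and that secrete interferon gamma and chemokines such as Ccl5. In mice they mature from a Cd27-bearing stage towards a stage marked by the integrin CD11b and the inhibitory lectin receptor Klrg1, a transition that depends on the transcription factors T-bet and Zeb2. The mature stage circulates and leaves marrow and lymph node through the sphingosine phosphate receptor S1pr5, whereas the earlier stage carries Cxcr3.

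The cells came from perfused and enzyme-digested left ventricles of C57Bl6J mice that had a sham procedure or received DOCA-salt, a regimen of deoxycorticosterone acetate (a steroid with mineralocorticoid action) and salt that raises blood pressure. CD45+ cells were enriched, stained with hashtag antibodies that mark the mouse and with 16 antibodies to surface proteins, pooled by group, sorted as live single cells and sequenced with the 10x 5' kit. Each group held 4 mice in 1 library, so group and library cannot be told apart in any comparison of DOCA-salt with sham below. No transgene or deletion is named for either group, and the age and sex of the mice and the dose and duration of DOCA-salt are not given in the sources used here.

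The libraries held 4359 sham and 7600 DOCA-salt barcodes with 13304511 and 29764964 RNA UMIs, of which 4118 and 7030 cells passed the filters and were assigned. B cells made up a mean of 56.6% of assigned cells in the sham group and 43.2% with DOCA-salt (exact permutation p = 0.0286, n = 4 and 4). The libraries shared 41 barcodes, of which 2 were sham members and 0 DOCA-salt members.

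Of the members, 288 were from sham and 592 from DOCA-salt hearts. The 4 sham mice gave 55, 68, 32 and 133 members, and the 4 DOCA-salt mice gave 137, 149, 55 and 251. A mouse's members summed to between 108130 and 459436 UMIs in the sham group and between 172462 and 968253 after DOCA-salt, so the third mouse of each group is the least precise. Members of both groups were of like depth, with a median of 3241 UMIs per sham cell and 3237 per DOCA-salt cell. The median mitochondrial share was 1.21% and 1.37%. A doublet caller marked 1 sham and 3 DOCA-salt members.

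The genes that chose the members are given as a description, with no test. Values are CPM, the field's usual unit for a gene's share of the scaled UMI total, taken here over a mouse's cells of that class. Klrg1, the inhibitory receptor, stood at 665, 807, 527 and 744 CPM in the mature cells of the 4 sham mice and at 538, 592, 424 and 561 CPM in those of the DOCA-salt mice. In less mature cells it stood between 77.1 and 169 CPM over the 8 mice. Cma1, a chymase best known from mast cells, stood at 695, 747, 679 and 723 CPM in sham and at 378, 594, 357 and 537 CPM in DOCA-salt members, with no overlap between the groups. Zeb2 stood at 400, 322, 527 and 359 CPM in sham and at 500, 422, 478 and 473 CPM in DOCA-salt members, so its groups overlapped. Itgam, which encodes CD11b, was sparse at 53.3 to 162 CPM in sham and 54.9 to 66.6 CPM in DOCA-salt members. Ncr1, the activating receptor NKp46, stood at 1448 to 2091 CPM in sham and at 1621 to 2006 CPM in DOCA-salt members.

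The genes that give the class its name were in part set by the gate, and all but Itgam were present in most members. A Klrg1 UMI was present in 76.0% of sham and 74.0% of DOCA-salt members, a Cma1 UMI in 77.1% and 69.8%, a Zeb2 UMI in 66.0% and 73.6%, and an Itgam UMI in 19.8% and 18.2%. In B cells, which lack these proteins or carry little of them, a Klrg1 UMI was found in 0.086% and 0.099% of cells and a Cma1 UMI in 0.215% and 0.264%, at median depths of 2644.5 and 2934 UMIs. Zeb2 was less clean, with a UMI in 12.6% and 8.54% of B cells. The 6 mast cell markers Cpa3, Mcpt4, Tpsb2, Kit, Fcer1a and Ms4a2 were all at 0 in sham members, and summed to between 0 and 3.24 CPM in DOCA-salt members, from 4 UMIs of 3 of the genes. Most members rested on several of the genes: 39 sham and 96 DOCA-salt members held 1 of the 4 genes, 122 and 233 held 2, 103 and 219 held 3, and 24 and 44 held all 4.

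The cut runs through a range of cells rather than a gap. In sham mice 45 members lay 1 UMI inside the cut, 46 cells lay on it with equal sums and 27 lay 1 UMI below, out of 507 NK cells. In DOCA-salt mice these numbers were 111, 116 and 98 of 1226. Of the ties, 14 sham and 17 DOCA-salt cells held no UMI of either sum. Another 22 sham and 16 DOCA-salt cells met the gate but could not be assigned to a mouse.

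Transcripts of marker lists for other cell types were present in the members, and the myeloid lists differed between the groups. The 7 macrophage markers (C1qa, C1qb, C1qc, Adgre1, Csf1r, Mrc1 and Apoe), all of which had a UMI in both groups, summed to between 153 and 223 CPM in sham members and between 320 and 715 CPM in DOCA-salt members, with no overlap. In B cells, which do not make them, the same list summed to between 517 and 564 CPM and between 662 and 772 CPM. The 6 monocyte markers, led by Ly6c2 and Lyz2, summed to between 2013 and 2473 CPM in sham members, with Chil3 and Fn1 at 0, and to between 2722 and 3958 CPM in DOCA-salt members. Ly6c2 and Ccr2 of this list also differed between the NK classes, as given below, so its sum does not measure monocyte RNA alone. The 4 neutrophil markers summed to between 0 and 10.1 CPM in sham members, with S100a9 and Retnlg at 0, and to between 34.6 and 60.5 CPM in DOCA-salt members. The 8 T cell markers stayed at 16.2 to 50.6 CPM in sham and 17.6 to 27.5 CPM in DOCA-salt members, with Cd4, Cd8a, Cd8b1 and Cd5 at 0 in sham. The 7 B cell markers ran from 704 to 1104 CPM and from 678 to 1897 CPM. The 5 markers of type 1 innate lymphoid cells (ILC1) summed to between 23.6 and 163 CPM and between 25.5 and 91.7 CPM, with Cxcr6 at 0 in DOCA-salt members. Fibroblast markers were at 0 in sham and reached 1.08 CPM in DOCA-salt members. Their part in the differences below was not tested, except where values without the myeloid-rich members are given.

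Antibody counts played no part in the gate, and CD11b antibody was higher on the mature cells in 8 of 8 mice without passing the adjusted threshold. Mature cells of the 4 sham mice carried 841, 996, 870 and 750 CD11b antibody UMIs per cell and those of the 4 DOCA-salt mice 712, 627, 705 and 732. Less mature cells of the same mice carried 560, 654, 538 and 491 in sham and 559, 509, 589 and 548 in DOCA-salt, and the B cells of single mice carried 130 to 251. The mature cells were thus above the less mature ones in all 8 mice. The difference within a mouse averaged 0.51 on the centred log2 scale (SD 0.17), with a range of 0.25 to 0.76 (n = 8, exact sign-flip permutation p = 0.00781, the smallest that 8 mice allow; adjusted p = 0.0625 over 16 antibodies). Itgam RNA, which the gate used, and CD11b come from 1 gene. Without the cells of either class that held an Itgam UMI, an alternative chosen after seeing the data, the difference was 0.50, from 231 and 484 mature cells. Its exact sign-flip p was again 0.00781. The adjusted p was 0.0313 there, lower only because more of the other antibodies had a small p.

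The other antibodies differed less. NK1.1, the product of Klrb1c, stood at 450 ± 35.3 UMIs per mature cell in sham and 388 ± 30.8 in DOCA-salt mice (SD, n = 4), against 20.2 to 38.7 on B cells of single mice. It did not separate the NK classes, at -0.06 (exact sign-flip p = 0.336, n = 8). CD80, a costimulatory ligand, was lower on mature cells in 8 of 8 mice by a mean of -0.18 (exact sign-flip p = 0.00781, adjusted p = 0.0625). CD64, CD44 and CD11c differed by -0.29, -0.27 and -0.20 with adjusted exact p of 0.0833, 0.1 and 0.1. In sham and DOCA-salt means CD80 stood at 88.6 and 81.8 UMIs per mature cell and at 106 and 95.1 per less mature cell. CD64 stood at 120 and 99.4 and at 144 and 135. B cells carried more of both, with 151 and 123 for CD80 and 201 and 150 for CD64. Whether these 2 signals on NK cells are above background was not tested. None of the 16 antibodies passed the adjusted threshold of 0.05, and 5 had an unadjusted exact p under it.

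Across the NK cells as a whole, CD11b antibody and several transcripts outside the gate differed between the ends of the gate difference, without an even course between them. In cells whose mature sum was at least 5 UMIs below the other sum, the median CD11b count was 320 in sham and 400 in DOCA-salt cells, and in cells at least 5 UMIs above it was 845 and 679. In between, the sham medians were 537.5, 417.5, 448.5, 649 and 722 in order of the bins, and the DOCA-salt medians 483, 457, 494.5, 501.5 and 566. S1pr5 went from 262 and 226 CPM to 546 and 562 CPM between the same end bins, and in sham cells it was higher, at 611 CPM, in the bin before the last. Ltb, which encodes lymphotoxin beta, went from 178 and 260 CPM to 7.95 and 13 CPM. The plot by bin shows Ltb already low below the cut, whereas CD11b and Gzmb were higher in the last bin than in the first one above the cut, with sham Gzmb lower between them at 1566 CPM. These bins pool cells of 4 mice and are a description.

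**Figure D1:**
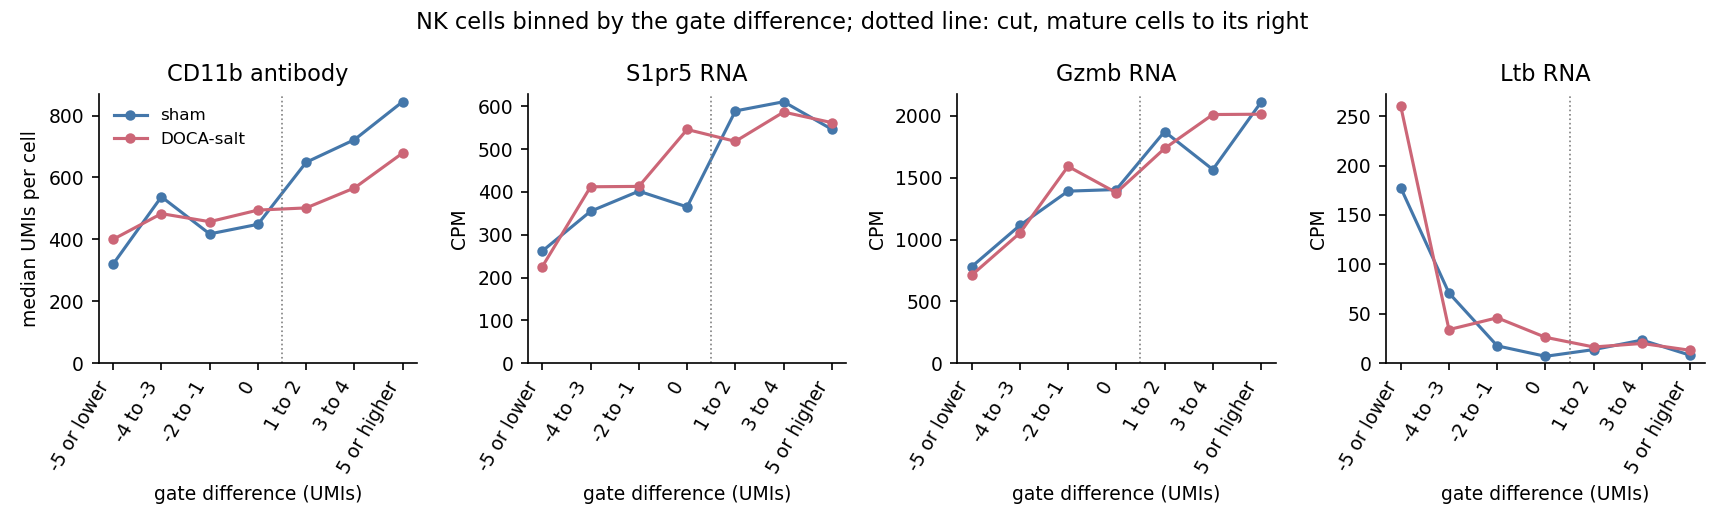
NK cells binned by the gate difference, the UMI sum of Klrg1, Cma1, Zeb2 and Itgam minus that of Cd27, Emb, Ctla2a, Cd7 and Xcl1 (x axis, UMIs), with the median CD11b antibody UMIs per cell and the CPM of S1pr5, Gzmb and Ltb on the y axes. Lines join pooled cells of 4 sham mice and 4 DOCA-salt mice, and the median CD11b count reaches 845 and 679 in the last bin.

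What else moved with the gate genes was read from mature and less mature cells of the same 8 mice, with the mouse as a block and the genes of the gate left out. The edgeR test called 296 of 4885 genes (6.06%), of which 108 (2.21%) were higher and 188 (3.85%) lower in mature cells. Mature cells held more of the fractalkine receptor, granzyme B and S1pr5, and less lymphotoxin beta, Cxcr3, Thy1 and Ccr2. Because the gate picked the cells by genes that vary with maturity, these values describe the class and are no evidence that the classes are separate cell types.

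Of the 8 other known marks of mature NK cells, 7 passed higher and none lower, with a median log2 difference of 0.64 against 0.00 over all genes tested. Cx3cr1, the fractalkine receptor, had 68.6 to 182 CPM (median 109) in mature and 14.5 to 36.8 CPM (median 21.8) in less mature cells, a log2 difference of 1.94 (SE 0.18, edgeR adjusted p = 7.65e-11). No mouse's less mature cells reached the level of any mouse's mature cells. Gzmb, the serine protease of killing granules, had 1696 to 2519 CPM against 929 to 1586 CPM (0.80, SE 0.06, adjusted p = 3.01e-14). S1pr5, the egress receptor, had 506 to 672 CPM against 289 to 430 CPM (0.70, SE 0.07, adjusted p = 7.65e-11). Serpinb9b, a granzyme inhibitor of the serpin family, differed by 1.15, Irf8 by 0.42, Itgb2, the partner chain of CD11b, by 0.32, and Ahnak by 0.29. Prdm1, the eighth, differed by 0.59 and did not pass (adjusted p = 0.0974).

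Of 7 other known marks of less mature cells, 6 passed lower and none higher, with a median of -2.26. Only 3 of the 7 passed the count filter in mature cells alone. The rest entered only with the less mature cells included, so the count and median are a description. Ltb had 0 to 30.4 CPM in mature and 57.0 to 241 CPM in less mature cells (-3.03, SE 0.19, edgeR adjusted p = 2.34e-16). Cxcr3, a receptor for interferon-induced chemokines, had 0 to 35.3 CPM against 67.8 to 125 CPM (-2.67, SE 0.21, adjusted p = 2.11e-13). Thy1, a surface glycoprotein, had 0 to 103 CPM against 190 to 346 CPM (-2.26, SE 0.14, adjusted p = 4.42e-16). Il7r, the interleukin 7 receptor, differed by -2.58, Cd160 by -1.68 and the early activation mark Cd69 by -0.56.

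Ccr2, a receptor that draws cells to inflamed tissue, was called lower in mature cells, with 30.4 to 149 CPM against 251 to 390 CPM (-1.44, SE 0.10, edgeR adjusted p = 4.8e-15). Of 17 measured trafficking and adhesion genes, 5 passed higher (Cx3cr1, S1pr5, Itgb7, Itgb2 and Itga4) and 4 lower, among them Cxcr3, Ccr2 and S1pr1. The S1P receptors thus went opposite ways, with S1pr1 at -0.97 (adjusted p = 0.00192). Of 5 measured residency and ILC1 genes, 4 passed lower, and Tmem176a and Tmem176b among them differed by -1.66 and -0.84. Only 3 genes of that list passed the count filter in mature cells alone, so its count is a description too.

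The genes with the largest differences past the threshold included some without a known place in NK maturation. Cdc20b had 60.5 to 111 CPM in mature cells against 14.5 to 51.8 CPM (1.22, edgeR adjusted p = 5.54e-07). Fcgr2b, the inhibitory Fc receptor, differed by 1.07, Kcnj8, a potassium channel subunit, by 1.05, and Snx10 and Rac3 by 0.84 and 0.83. Ly6c2, a surface protein also found on monocytes, had 1661 to 3008 CPM against 650 to 2118 CPM (0.87, adjusted p = 1.7e-15). On the lower side Serpina3g differed by -1.07, Zfp512 by -1.02, Cmtm7 by -0.95, Ly6e by -0.90 and Gpr132 by -0.87. The named genes were picked for going the same way in 8 of 8 mice, so nothing is read from that. Genes with close copies, such as the Ly49 receptor genes, Serpina3g, Serpinb9b, Ly6c2 and Khdc1a, can share reads with these, so their single values are uncertain.

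**Figure D2:**
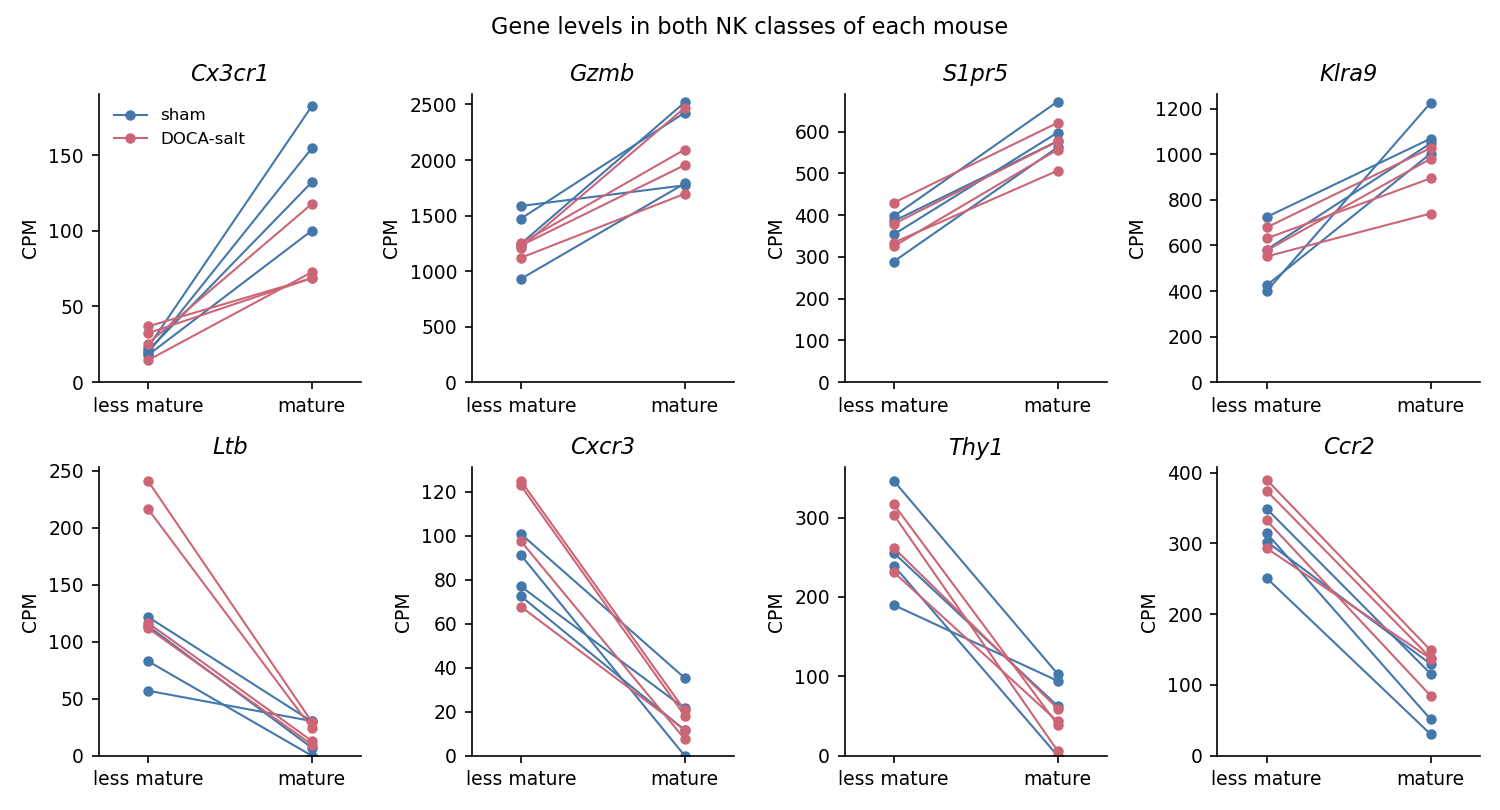
CPM of 8 genes (y axes, linear) in less mature and mature NK cells (x axis) of each mouse, with a line joining the 2 classes of a mouse and colour giving the group. Cx3cr1, Gzmb, S1pr5 and Klra9 were higher in mature cells and Ltb, Cxcr3, Thy1 and Ccr2 lower in 8 of 8 mice.

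Receptors, regulators and effectors gave a mixed picture. Of 14 measured granule and killing genes outside the gate, 4 passed higher in mature cells (Gzmb, Ctsc, Serpinb9 and Ctsd) and none lower, with a median of 0.09. Of 18 NK transcription factors, Tbx21 (0.45), which encodes T-bet, Irf8 (0.42) and Klf2 (0.25) passed higher. Tox (-0.68), Eomes (-0.40) and Ets1 (-0.27) passed lower. Of 13 inhibitory and Ly49 receptor genes, Klra9 (0.76) and Klra3 (0.65) passed higher and Tigit (-0.80) lower. Of 16 activating receptors and adaptors, Fcer1g, the Fc receptor gamma chain, passed higher at 0.20, and Klrb1f (-0.31) and Cd160 passed lower. Ccl5, the most abundant chemokine transcript of these cells, was at 16856 to 28814 CPM in mature and 13641 to 19190 CPM in less mature cells (0.44, SE 0.04, edgeR adjusted p = 4.62e-10).

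The remaining lists held smaller differences. Ribosomal protein genes, counted after the values were seen, were called lower in mature cells in 67 of 89 cases and higher in 0, with a median of -0.24. Of 22 genes of the S100, annexin, galectin and cytoskeleton list, 7 passed higher, led by Lgals1 (0.50) and S100a6 (0.42), and S100a11 passed lower (-0.27). Among 18 early response genes, Dusp2 (0.42) and Ier2 (0.28) passed higher and Nr4a2 (-0.69), Tnfaip3 (-0.55) and Nfkbia (-0.51) lower. Of 20 cytokine receptor and signalling genes, Il12rb2 (0.44) passed higher and Ifnar1 (-0.70) and Il2rb (-0.20) lower. Of 15 interferon-stimulated genes none passed.

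The share of mature NK cells did not differ between the groups beyond the spread between mice. Mature NK cells were 5.60%, 5.58%, 5.10% and 10.3% of assigned leukocytes in the 4 sham mice, and they were 6.19%, 7.80%, 7.06% and 11.8% in the 4 DOCA-salt mice. The highest sham mouse lay above 3 of the DOCA-salt mice. The means were 6.65% ± 2.45 and 8.21% ± 2.48 (SD, n = 4), a difference of 1.56 percentage points (two-sided exact permutation p = 0.4). Shares of 1 library sum to a fixed total, so they move with the B cells. Without B cells in the denominator the difference was -0.803 points (exact permutation p = 0.714). Without sham mouse 4 the difference was 2.78 points (exact p = 0.0571, n = 3 and 4), and without DOCA-salt mouse 4 it was 0.370 points. With the top hashtag at least 5 times the second, it was 2.77 points (exact permutation p = 0.143), and the highest sham share was 7.34%. Sham mouse 4 then kept 84 of its 133 members and DOCA-salt mouse 4 kept 239 of 251.

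Among NK cells alone, 49.5%, 60.7%, 50.8% and 60.2% were mature in the sham group, and 50.4%, 43.6%, 55.0% and 49.0% with DOCA-salt. The groups overlapped, and the means of 55.3% ± 5.96 and 49.5% ± 4.71 (SD, n = 4) differed by -5.82 points (two-sided exact permutation p = 0.171). Cells of at least 1500 UMIs were also thinned to 1500 before the gate, and cells below that depth were left out. The difference was then -7.48 points and the groups no longer overlapped (exact permutation p = 0.0286, the smallest that 4 against 4 mice allow). With any Cd3, B cell or C1q UMI barred from the gate it was -0.571 points (exact p = 0.914). All NK cells together were a mean of 11.9% of leukocytes in the sham group and 16.8% with DOCA-salt (exact p = 0.171, n = 4 and 4).

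**Figure D3:**
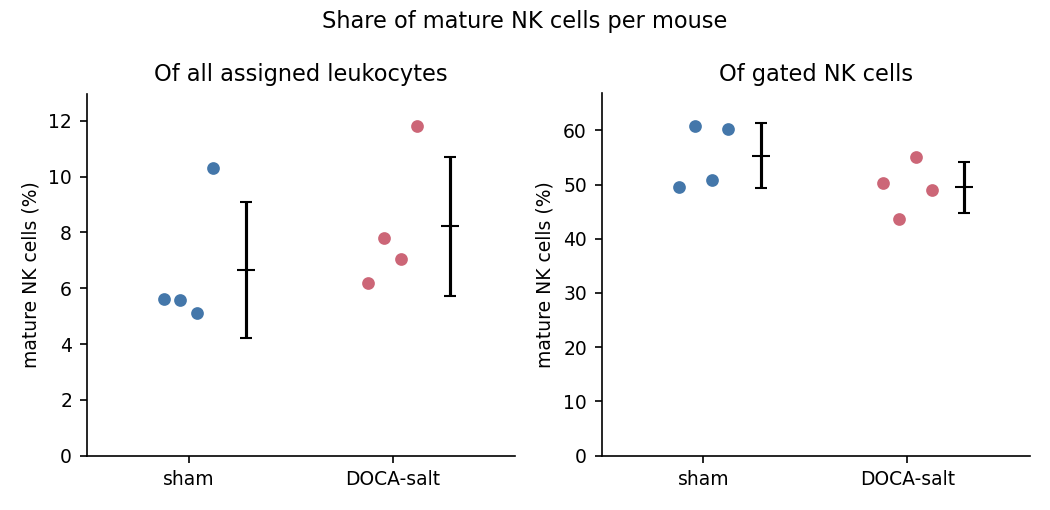
Mature NK cells as a percentage of all assigned leukocytes (left) and of gated NK cells (right) in each mouse (points), with mean and SD beside them in black, n = 4 mice per group. The highest sham mouse, at 10.3% of leukocytes, lies above 3 of the 4 DOCA-salt mice.

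Between DOCA-salt and sham mice, the mature cells differed in few genes, and most of these were lower after DOCA-salt. The edgeR test called 23 of 4838 genes (0.475%), with 4 (0.0827%) higher and 19 (0.393%) lower in DOCA-salt, and 410 genes had an unadjusted p under 0.05. The lower genes included the chemokine Ccl5, the nuclear RNA Malat1, the G protein subunit Gnai2 and 3 corticosteroid-responsive genes, Sgk1, Tsc22d3 and Ddit4. The higher genes included Apoe and Lyz2, which macrophages and monocytes express at high levels. Markers of maturity, granules and receptors outside the gate did not pass. The number of calls depended on single mice, with 8 left without sham mouse 4, 10 without sham mouse 2 and 14 without DOCA-salt mouse 4.

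Ccl5 (chromosome 11, 83525778 to 83530518 in GRCm38, minus strand), a chemokine that attracts T cells, monocytes and NK cells, was one of the most abundant transcripts of the mature cells. It stood at 24486, 26919, 28814 and 23891 CPM in sham and at 16856, 19801, 17485 and 17841 CPM in DOCA-salt members. Every DOCA-salt mouse was below every sham mouse. The log2 change was -0.53 (SE 0.08, edgeR adjusted p = 0.000777). A Ccl5 UMI was present in 100% of the members of both groups, and in 3.78% and 7.35% of B cells. In B cells of the same mice and libraries the log2 change of Ccl5 was 1.53 (edgeR adjusted p = 0.117), and in T cells it was -0.02 (0.996). The call was lost in 1 of 16 alternatives, with other-cell UMIs barred from the gate (adjusted p = 0.18). Of the 8 measured cytokine and chemokine genes outside the gate only Ccl5 passed. Ccl3, Ccl4 and Ifng, which encodes interferon gamma, had log2 values of -0.35, -0.23 and -0.31 with adjusted p of 0.759, 0.835 and 0.813. The list's median was -0.27 against -0.01 over all genes tested.

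Of 7 measured genes of the corticosteroid response list, 3 passed lower and none higher, where 0.393% of all genes tested passed lower, and the median was -0.36 against -0.01 over all genes. The list was chosen with earlier results of these data known, so these counts are a description and no test of the list. Sgk1 (chromosome 10, 21882184 to 21999903, plus strand), a kinase that controls sodium transport and is induced by corticosteroids, stood at 82.4, 60.1, 182 and 95 CPM in sham and at 59.6, 41.2, 36.3 and 28.1 CPM in DOCA-salt members. The groups came within 1 CPM of each other without overlapping, and the values rest on 14 to 41 UMIs a mouse in sham hearts and 6 to 26 in DOCA-salt hearts. The log2 change was -1.25 (SE 0.28, edgeR adjusted p = 0.03), and the call was lost in 6 of 15 alternatives, DESeq2 among them. A Sgk1 UMI was present in 21.9% of sham and 12% of DOCA-salt members, against 5.03% and 6.66% of B cells.

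Tsc22d3, the glucocorticoid-induced leucine zipper, stood at 359, 738, 638 and 582 CPM in sham and at 385, 306, 460 and 289 CPM in DOCA-salt members (-0.75, SE 0.16, edgeR adjusted p = 0.0281). Its groups overlapped through sham mouse 1. Ddit4, an inhibitor of mTORC1 signalling, stood at 171, 266, 70.9 and 264 CPM in sham and at 105, 100, 139 and 134 CPM in DOCA-salt members (-0.88, SE 0.20, adjusted p = 0.0398), with an overlap through sham mouse 3. Their calls were lost in 7 and 8 of 16 alternatives, DESeq2 among them for both genes. Txnip, a further member, had a value of -0.36 and did not pass (adjusted p = 0.188). In B cells of the same mice and libraries Tsc22d3 had -0.54 (edgeR adjusted p = 0.00297), Ddit4 -1.05 (0.0509) and Sgk1 0.12 (0.854). In T cells the values of Tsc22d3, Ddit4 and Sgk1 were -0.48, -0.47 and 0.19. In less mature NK cells they were -0.36, -0.76 and -0.48, and none passed in either class. The promoters of these 3 genes were searched because corticosteroid receptors are known to bind a partly palindromic element of the form GNACANNNTGTNC. That element, which reads alike on both strands, was searched in the 250 bases before each annotated start in RefSeq promoters of GRCm38.p6. It was found in 1 of 6 Sgk1 windows, 0 of 3 Tsc22d3 windows and 0 of 1 Ddit4 window, and in 0.387% of all 32851 windows (127). The Sgk1 match lies at chr10:21993702-21993714, starts 188 bases before the start of that transcript on the plus strand, and overlaps 0 annotated exons. It is shown in capitals within chr10:21993678-21993738, 5′ to 3′:
Sgk1: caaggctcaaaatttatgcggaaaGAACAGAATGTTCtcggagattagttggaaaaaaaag
The match is one of letters and shows no binding.

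Malat1 (chromosome 19, 5795690 to 5802672, minus strand), a long noncoding RNA retained in the nucleus, stood at 9852, 9142, 8497 and 8575 CPM in sham and at 6938, 6566, 5562 and 5862 CPM in DOCA-salt members. The groups did not overlap, and the log2 change was -0.53 (SE 0.08, edgeR adjusted p = 0.00104). It kept its call in all 16 alternatives. The same gene had a value of -0.61 in less mature NK cells (adjusted p = 9.23e-06), -0.76 in B cells (adjusted p = 1.04e-06) and -0.97 in T cells (adjusted p = 1.51e-06) of the same mice. These classes share mice and libraries, so the values are set side by side and are not separate evidence. None of the other 11 measured genes of the mRNA decay and quiescence list passed, and Btg1 had -0.43 (adjusted p = 0.0741).

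Cdk2ap1, an inhibitor of the kinase CDK2, stood at 200, 227, 142 and 174 CPM in sham and at 93.9, 92.1, 78.7 and 88.6 CPM in DOCA-salt members (-1.07, SE 0.16, edgeR adjusted p = 0.000777). Its groups were well apart, and it was called in less mature cells too, at -0.84 (adjusted p = 0.0116). In B cells of the same mice and libraries it was also called, at -0.75 (adjusted p = 0.00517), and in T cells it was not (-0.64, adjusted p = 0.41). Drap1, a subunit of the NC2 transcription corepressor, stood at 141, 133, 243 and 174 CPM in sham and at 66.5, 82.3, 72.6 and 67.0 CPM in DOCA-salt members (-1.21, SE 0.18, adjusted p = 0.000777). In less mature cells its value was -0.28 (adjusted p = 0.904), but the difference between the classes, -0.92 (SE 0.25), did not pass (adjusted p = 0.693). Both calls were lost in 1 of 16 alternatives each. Gnai2, the G protein alpha subunit through which chemokine receptors signal, stood at 577, 781, 699 and 635 CPM in sham and at 433, 420, 333 and 470 CPM in DOCA-salt members (-0.66, SE 0.12, adjusted p = 0.00726). It stood apart in every mouse, and had -0.59 in less mature NK cells (adjusted p = 0.0151), -0.69 in B cells (adjusted p = 0.000161) and -0.57 in T cells (adjusted p = 0.00954) of the same mice and libraries.

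The other named genes that were lower were chosen for groups that did not overlap, which held for 256 of the 4838 genes tested (5.29%), and nothing is read from it. Taf10, a subunit of the TFIID and SAGA complexes, changed by -0.76, Pitpna, a phosphatidylinositol transfer protein, by -0.73, H2afy, which encodes the histone variant macroH2A1, by -0.70 and Rnasek, a membrane protein of the endolysosomal proton pump, by -0.70. Their edgeR adjusted p ran from 0.0142 to 0.0164. Cited2, a transcriptional coregulator, changed by -0.79, Mknk2, a kinase of the initiation factor eIF4E, by -0.76 and Lars2, the mitochondrial leucyl-tRNA synthetase, by -0.59, each with an adjusted p of 0.0398. Those last 3 calls were lost in 9, 12 and 11 of 16 alternatives, those of H2afy and Rnasek in 6 each, DESeq2 among them, and those of Taf10 and Pitpna in 3 each. Of 17 early response genes only Jund passed, with 1360, 1369, 1104 and 1087 CPM in sham and 949, 743, 1041 and 707 CPM in DOCA-salt members (-0.55, adjusted p = 0.03), and it lost its call in 8 of 16. Fos had 0.04 and Junb -0.42, and neither passed (adjusted p = 0.997 and 0.436). In B cells of the same mice and libraries Taf10 had -0.63 (edgeR adjusted p = 0.0088), Pitpna -0.37 (0.0248), Mknk2 -0.73 (0.000817) and Jund -0.55 (0.0312). Taf10 was also called in less mature NK cells (-0.73, adjusted p = 0.0132) and T cells (-0.68, 0.0328), and Mknk2 in T cells (-0.93, 0.0474). H2afy, Rnasek, Cited2 and Lars2 were called in none of these classes.

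**Figure D4:**
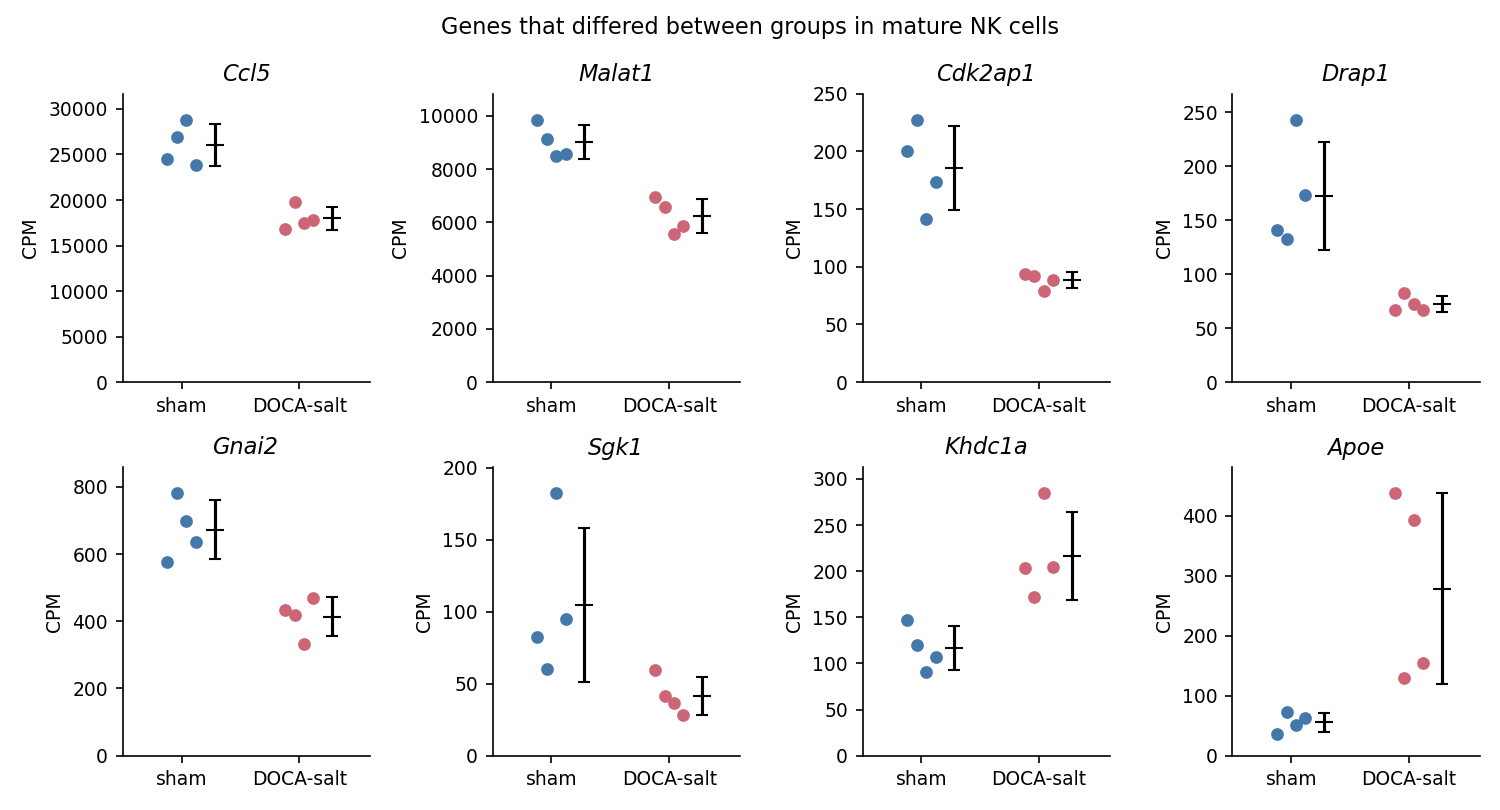
CPM of 8 genes (y axes, linear) in the mature NK cells of each mouse (points), with mean and SD in black, n = 4 mice per group. Ccl5, Malat1, Cdk2ap1, Drap1, Gnai2 and Sgk1 are lower and Khdc1a and Apoe higher in every DOCA-salt mouse than in every sham mouse.

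Apoe (chromosome 7, 19696109 to 19699188, minus strand), which encodes a lipid-carrying protein of macrophages, stood at 35.3, 73.0, 50.6 and 62.6 CPM in sham and at 438, 129, 393 and 154 CPM in DOCA-salt members. The groups did not overlap, and DOCA-salt mice 1 and 3 were far above mice 2 and 4. The log2 change was 2.09 (SE 0.38, edgeR adjusted p = 0.00733), and without sham mouse 4 it did not pass (adjusted p = 0.11). At 1500 UMIs per cell, an Apoe UMI was present in 7.34% of the sham members and 17.4% of the others, against 27.7% and 39.5% of B cells. Without thinning the shares were 13.5% and 36.8% of members and 37.6% and 56.6% of B cells. The share in members was below that in B cells. Whether this RNA came from the NK cells themselves or from elsewhere was not tested. The log2 change was 0.82 in less mature NK cells (adjusted p = 0.319), 0.57 in B cells (adjusted p = 0.00243) and -0.22 in T cells (adjusted p = 0.915), so Apoe was called in B cells and in neither of the others.

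Lyz2, the lysozyme of myeloid cells, stood at 124, 150, 395 and 134 CPM in sham and at 527, 186, 666 and 836 CPM in DOCA-salt members (1.69, SE 0.33, edgeR adjusted p = 0.0142). Its groups overlapped through sham mouse 3, and the call was lost in 5 of 16 alternatives. At 1500 UMIs a Lyz2 UMI was found in 15.0% and 31.6% of members and in 21.7% and 34.3% of B cells, again below the B cells of the same group. Its log2 change was 0.84 in less mature NK cells (adjusted p = 0.00902), 0.41 in B cells (adjusted p = 0.178) and 0.09 in T cells (adjusted p = 0.984). A small number of members carried much of this RNA. Over Lyz2, Apoe and 6 other myeloid genes, 4 sham members (1.39%) and 27 DOCA-salt members (4.56%) held at least 5 UMIs, and these held 54 of 250 and 1227 of 1962 such UMIs. Without them, an alternative chosen after seeing the data, Apoe changed by 1.36 (adjusted p = 0.00146) and Lyz2 by 0.75 (adjusted p = 0.0254), and 32 genes passed, among them all 23 of the calls above. Lgals3, the galectin of macrophages, had 1.43 and did not pass (adjusted p = 0.0587).

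Khdc1a, a KH domain gene, was the other higher gene taken by the naming rule. It stood at 147, 120, 91.2 and 107 CPM in sham and at 204, 173, 284 and 204 CPM in DOCA-salt members (0.82, SE 0.17, edgeR adjusted p = 0.0229). The call was lost in 7 of 16 alternatives. AW112010, a noncoding RNA at -0.38 (adjusted p = 0.0142), was open to the naming rule but ranked below the 12 lower genes it took. The called genes that the rule left out as numbered gene models were Gm9844, Gm11808 and Gm26917, the last of them higher at 0.99 and also without overlap. Gm9844 was also called in less mature NK, B and T cells, and Gm11808 in B and T cells.

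The identity genes of the mature cells outside the gate did not pass the test between the groups. Of the 8 measured marks of mature NK cells outside the gate none passed in either direction, 7 had values below 0, and the median was -0.16. S1pr5 stood at 577, 562, 598 and 672 CPM in sham and at 506, 576, 557 and 621 CPM in DOCA-salt members (-0.10, edgeR adjusted p = 0.856). Gzmb stood at 2426, 2519, 1772 and 1789 CPM and at 2470, 1696, 2094 and 1954 CPM (-0.06, adjusted p = 0.957). Both overlapped widely. Cx3cr1 stood at 100, 155, 182 and 132 CPM and at 68.7, 68.6, 72.6 and 118 CPM (-0.63, adjusted p = 0.249), so 3 of 4 DOCA-salt mice were below all sham mice and the difference did not pass. Irf8 had -0.60 (adjusted p = 0.0853) and Prdm1 -0.95 (adjusted p = 0.188).

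No gene passed in the lists of granule and killing genes (14 measured, median -0.07), activating receptors and adaptors (15, -0.04), inhibitory and Ly49 receptors (13, -0.19) or NK transcription factors (18, -0.13). Klra3, an inhibitory Ly49 receptor, came nearest, with 512, 541, 638 and 461 CPM in sham and 406, 308, 333 and 404 CPM in DOCA-salt members. It did not overlap between the groups and missed the threshold (-0.51, edgeR adjusted p = 0.0593). Tbx21 had 0.18 and Eomes -0.02 (adjusted p = 0.71 and 0.997). No gene passed among 14 interferon-stimulated genes (median 0.00), 12 mitochondrially encoded respiratory chain genes (0.15), 15 genes of MHC class I presentation (-0.09), 15 trafficking and adhesion genes (-0.10), 20 cytokine receptor and signalling genes (0.00) or 22 genes of the S100, annexin, galectin and cytoskeleton list (0.04). The same held for 10 proliferation, 14 glycolysis and 10 survival genes. Ly6e had 0.61 with no overlap (adjusted p = 0.0555), and a miss of the threshold does not show that the groups were alike.

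**Figure D5:**
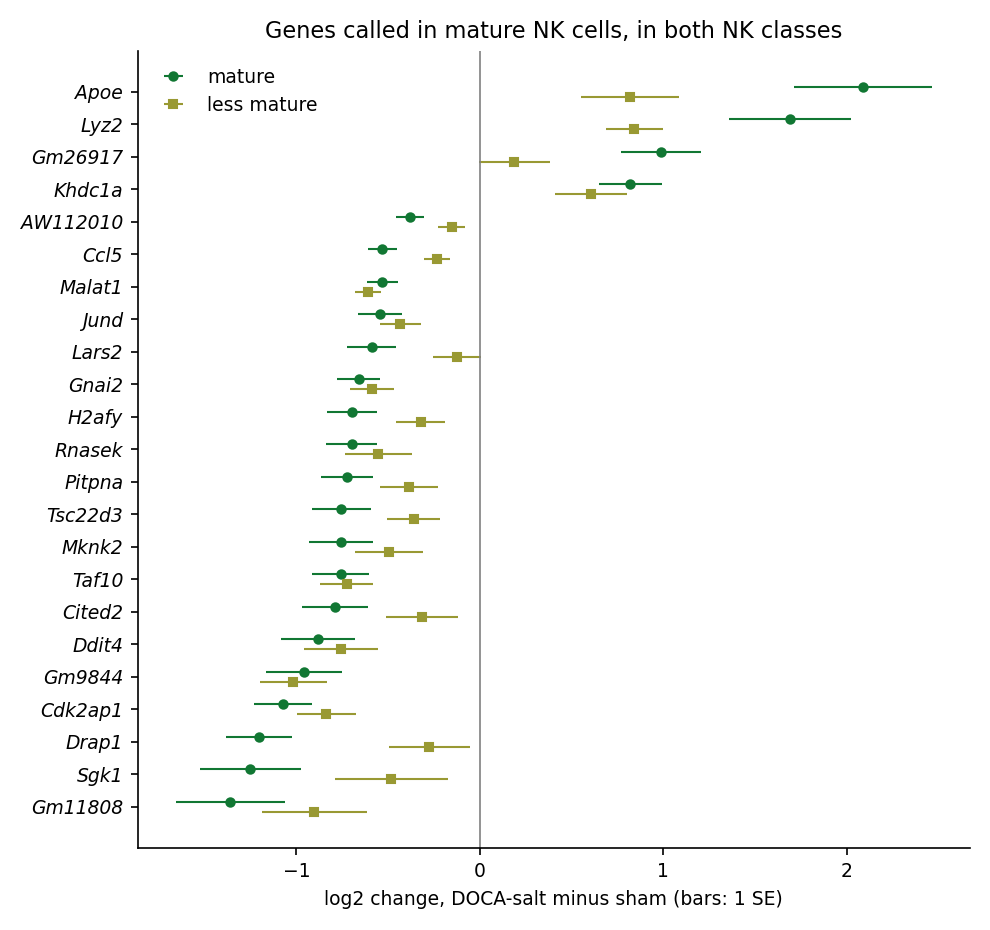
Log2 change of DOCA-salt against sham (x axis, bars 1 SE) for the 23 genes called in mature NK cells (y axis), in mature cells (circles) and in less mature cells of the same mice (squares). Malat1 is at -0.53 and -0.61 and Drap1 at -1.21 and -0.28 in the 2 classes, which share mice and libraries.

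Whether DOCA-salt acted differently on the mature cells was tested as the interaction of class and group, with the mouse as a block. Only Stmn1 of 4885 genes passed (0.0205%), and 238 had an unadjusted p under 0.05. Stmn1, a microtubule-destabilising protein abundant in dividing cells, stood in mature cells at 76.6, 73.0, 365 and 185 CPM in sham and 45.8, 90.2, 6.05 and 94.0 CPM in DOCA-salt mice. In less mature cells it stood at 29.7, 44.9, 57.0 and 38.0 CPM and at 47.4, 158, 36.1 and 97.6 CPM. The mature values overlapped between the groups and were highest in sham mouse 3. The difference of the changes was -2.32 (SE 0.34, edgeR adjusted p = 6.62e-05), and neither change passed on its own, at -1.09 in mature (adjusted p = 0.203) and 1.31 in less mature cells (adjusted p = 0.2). The call was lost without sham mouse 4 and with DESeq2. DOCA-salt mouse 3 had 1 Stmn1 UMI in its mature cells. Ccl5 had an interaction of -0.29 (SE 0.07) that did not pass (adjusted p = 0.693), so its change was not shown to differ from the -0.23 of less mature cells (adjusted p = 0.246). In less mature cells 18 of 3770 genes (0.477%) were called between the groups.

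Antibody levels on the mature cells were compared as centred log2 ratios over 16 antibodies, and none passed after adjustment. CD44, an adhesion receptor raised on activated lymphocytes, had the largest value, 0.60, with 1031, 910, 908 and 1223 UMIs per cell in sham and 1650, 1031, 1162 and 1258 in DOCA-salt mice. PD-1 had -0.25 and the gamma-delta T cell receptor -0.17. Each of these 3 had an exact permutation p of 0.0286, the smallest possible with 4 against 4 mice, and an adjusted p of 0.152. Mean PD-1 counts were 13.6 in sham and 9.37 in DOCA-salt mice per mature cell, against 13.3 and 9.67 per B cell. The gamma-delta T cell receptor stood at 8.86 and 6.48 UMIs per mature cell. B cells carried more of it in both groups and also less after DOCA-salt. Whether the PD-1 and gamma-delta receptor signals on NK cells are above background was not tested. On the centred scale CD11b had -0.03 (exact permutation p = 0.714, n = 4 and 4). The direction depended on the scale, since on UMIs per cell 15 of 16 antibodies were lower in DOCA-salt members, where CD11b had -0.31, and on centred ratios 10 were.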

How the data were processed

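RNA and antibodies were measured in 2 libraries, each pooling 4 mice told apart by 4 hashtags. The deposited matrices hold raw UMI counts per feature and barcode for 31053 genes, 16 surface antibodies and 4 hashtags, which the authors made with Cell Ranger, version 3.1.0 per the file headers. Seurat 4 and mm10 are also listed in the submitters' processing notes. The deposited feature and barcode lists hold other entries (text identifiers) with no measurement.

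Barcodes with at least 200 genes, at most 10% mitochondrial UMIs and a top hashtag at least 2 times the second were kept. Scrublet (scanpy 1.11.5) called doublets, which were removed only in an alternative. UMIs were summed per mouse and class, and edgeR's quasi-likelihood test (edgeR 4.0.16, R 4.3.3) was run on TMM-scaled sums of the genes that filterByExpr kept. Adjusted p of genes are Benjamini-Hochberg values from edgeR over all genes tested outside the gate, with a threshold of 0.05. Shares and antibodies were tested by two-sided exact permutation, antibodies as centred log2 ratios with a pseudocount of 1 UMI. B cells were gated by more than 2 UMIs over Cd79a, Cd79b and Ms4a1 and T cells by more than 1 over the Cd3 genes. Of the tests, only the edgeR comparison of the groups in mature cells was tried on simulated data. The labels call the mice of a group biological replicates. Mature and less mature cells of a mouse are paired because they come from 1 animal.

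Named genes were up to 12 per direction for DOCA-salt, by size among calls whose groups did not overlap and whose mean reached 50 CPM, up to 10 for maturity, with the same direction in 8 mice, up to 5 for the interaction and up to 4 per list. Numbered gene models, ribosomal, mitochondrial, sex-linked and antigen receptor genes were not ranked. Other names were chosen after their values were seen. Some genes of the lists are counted but not reported here by name. The members and gene lists were chosen with earlier results of these data known. Positions are from GENCODE (GRCm38). Alternatives were DESeq2 1.42.0, no filter on low counts, doublets removed, a hashtag margin of 5, no UMI of other cell types, a maturity margin of 2 UMIs, cells thinned to 1500 UMIs, each mouse left out, antibody UMIs per cell, no mouse block and, chosen after seeing the data, members without myeloid RNA or without Itgam UMIs. Thinning left out cells under 1500 UMIs. The gate was applied to thinned counts for shares and to full counts for gene tests.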

Additional observations from a re-analysis of the deposited data

Results flagged for a closer look

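Among 82 groups of 4 mice, 7 held 1 mouse far from the others, and chance gives about 1 in 20 (5%). Mature NK cells were 10.3% of leukocytes in 1 sham mouse and 5.10% to 5.60% in the other 3. With a hashtag margin of 5 the highest sham share was 7.34%. TIGIT antibody stood at 36.1 UMIs per mature cell in 1 DOCA-salt mouse and at 28.2 to 29.3 in the others. Lyz2 stood at 395 CPM in 1 sham mouse against 124 to 150, and Rnasek at 115 CPM in 1 DOCA-salt mouse against 144 to 149. Gm11808 stood at 44.3 CPM in 1 DOCA-salt mouse against 24.2 to 27.4. Mknk2 had such a mouse in both groups, at 263 CPM in sham against 141 to 162 and at 84.8 CPM in DOCA-salt against 100 to 103.

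Stmn1 was the 1 gene whose DOCA-salt change differed between mature and less mature cells, by -2.32 (edgeR adjusted p = 6.62e-05). The call rests on few UMIs, 1 to 87 per mouse in mature cells, and was lost without sham mouse 4.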

How the results depend on the processing

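Of the 23 genes called between DOCA-salt and sham in mature cells, the count was 10 with DESeq2, 70 with no filter on low counts, 36 with doublets removed, 8 with stricter exclusion of other cell types and 12 with cells thinned to 1500 UMIs. With 1 mouse left out it ran from 8 (without sham mouse 4) to 27 (without sham mouse 3). The 296 genes between mature and less mature cells became 180 with DESeq2, 137 with thinned cells and 215 (77 higher, 138 lower) with no replicate block. With 1 mouse left out they were 229 to 298. The interaction gave 1 gene, 0 with DESeq2 (53 at an unadjusted p under 0.05), 6 with no filter, 2 with a maturity margin of 2 UMIs, and 0 to 3 with 1 mouse left out. The cause of these changes was not tested. Thinning left 2474 genes to test and stricter exclusion 3044, against 4838. Stricter exclusion also left 26, 44, 14 and 77 members in the sham mice and 65, 80, 28 and 116 in the DOCA-salt mice.

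The difference in the share of leukocytes was 1.56 points, turned to -0.803 without B cells in the denominator, and ran from 0.370 to 2.78 with 1 mouse left out. It was 2.77 points with a hashtag margin of 5 (exact permutation p = 0.143). The mature share of NK cells differed by -5.82 points, by -7.48 with thinned cells (exact permutation p = 0.0286), and by -7.74 to -3.85 with 1 mouse left out. Between the NK classes 0 antibodies passed, 3 with doublets removed (CD11b, CD11c and CD80) and 4 without cells holding an Itgam UMI (CD11b, CD4, CD64 and CD80). Between the treatments 0 antibodies passed, with 3 at an unadjusted exact p under 0.05, and the alternatives say nothing of stability there, since 3 against 4 mice cannot go below an exact p of 0.0571.

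No paired analysis was possible because a hashtag number ties no mouse of one group to a mouse of the other. For mature against less mature cells the mouse is the block, and the value with no block is above. Depth limits genes of few UMIs, such as Sgk1 and Stmn1, most in the 3 mice with 32 to 55 members.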
